A study of Mus musculus with 6 samples.

Results

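A set of 10 imprinted genes of the newborn mouse cortex was followed, namely Igf2, H19, Meg3, Snrpn, Ndn, Peg3, Dlk1, Cdkn1c, Grb10 and Plagl1. They were taken by symbol from a table of 23621 genes, and all 10 were found and passed the filter on low counts. The table covers total RNA of whole cortex dissected on postnatal day 0 in 3 wild-type and 3 littermate Tle4-/- null mutant libraries, with 18617408 to 21632607 counts per library. Tle4 encodes a Groucho-family co-repressor, and in every animal of either genotype the strains C57BL/6J, 129S6 and CD1 were mixed. The labels do not say how the null allele was made, nor whether each library came from an animal of its own, so p-values measure the spread between these libraries, which may in part be technical.

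Imprinted genes are expressed mainly from the copy inherited from the mother or from the father, a choice set in the germ line by DNA methylation at control regions that each serve a cluster of neighbouring genes. Paternally expressed Peg3, Ndn, Snrpn, Dlk1 and Plagl1 and maternally expressed H19, Meg3 and Cdkn1c act in growth, metabolism and neuronal development. Igf2, which also acts in growth, is paternally expressed in most but not all tissues. Grb10 is maternally expressed in most tissues and paternally expressed in neurons. In the brain, Igf2 is made chiefly by meninges, vessels and choroid plexus, whereas Ndn, Snrpn, Peg3 and Meg3 are abundant in neurons. The table gives 1 value per gene and library, so the parental copies were not told apart.

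Igf2 and H19 share a control region on chromosome 7, and they were the members that varied most between libraries. RefSeq (GRCm38.p6) lists 4 start windows for Igf2, each running from 250 bases before to 50 bases after a start. The most CpG-rich of them, at chr7:142658755-142659054 on the minus strand, is shown with its 24 CpG dinucleotides in capitals. It was picked for its CpG count alone. Neither methylation nor the control region of the pair was examined. Which start the counts came from was not analysed here.
Igf2: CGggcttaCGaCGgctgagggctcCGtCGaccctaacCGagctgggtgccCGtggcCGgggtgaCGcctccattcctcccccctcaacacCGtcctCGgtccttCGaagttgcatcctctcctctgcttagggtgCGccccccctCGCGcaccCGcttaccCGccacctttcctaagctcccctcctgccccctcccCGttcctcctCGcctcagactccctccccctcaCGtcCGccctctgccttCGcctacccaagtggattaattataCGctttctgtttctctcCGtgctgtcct

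A search of these windows for GGGGCCCC, a core sequence known for binding of the zinc-finger protein Plagl1, covered 16 windows of 8 members. The letters read the same on both strands and can overlap CpG-rich sequence. They were present in 1 of the 16, against 1.08% of the 32851 windows of all genes. That window belongs to Peg3, at chr7:6730370-6730669 on the minus strand, and is shown with the match in capitals. A match of letters is a description and not a binding site.
Peg3: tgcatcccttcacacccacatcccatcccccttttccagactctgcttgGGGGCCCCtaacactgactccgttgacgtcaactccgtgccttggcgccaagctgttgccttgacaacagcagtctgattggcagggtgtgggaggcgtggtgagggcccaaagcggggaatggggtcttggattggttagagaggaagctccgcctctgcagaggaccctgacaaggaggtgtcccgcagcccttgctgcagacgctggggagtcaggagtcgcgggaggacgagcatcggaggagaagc

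Small RNAs lie inside both members of the Igf2-H19 pair. Their mature sequences, from RefSeq, are given with the seed (bases 2 to 8, the part that pairs with targets) in capitals. No 2 of these 4 share a seed. They were not counted in the table, so the values of H19 and Igf2 are those of the host genes only.
mmu-miR-675-5p, in H19: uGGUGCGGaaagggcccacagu
mmu-miR-675-3p, in H19: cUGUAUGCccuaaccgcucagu
mmu-miR-483-5p, in Igf2: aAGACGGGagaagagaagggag
mmu-miR-483-3p, in Igf2: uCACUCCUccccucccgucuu

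Levels of different genes were compared as CPM (each count as a share of its library's scaled total, with TMM factors) per kilobase (kb) of exons, with exon lengths from GENCODE M21. On this scale Snrpn, a spliceosomal protein of neurons, was highest at 125 ± 7.55 CPM per kb (SD, n = 6 libraries). It by the long noncoding RNA Meg3 at 105 ± 14.1 and by Ndn, which encodes necdin of postmitotic neurons, at 90.2 ± 8.61 CPM per kb. The ranges of these 3 overlapped their neighbours in the order, although Snrpn was above Meg3 in 6 of 6 libraries and Meg3 above Ndn in 5. Cdkn1c, an inhibitor of cyclin-dependent kinases, came next at 33.0 ± 2.61 CPM per kb, and every library of Ndn lay above every library of Cdkn1c.

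Igf2, a secreted growth factor, stood at 21.1 ± 12.4 CPM per kb, and H19, a long noncoding RNA, at 17.6 ± 11.6. Their ranges overlapped each other's, and the range of Igf2 also overlapped that of Cdkn1c. Peg3, a large zinc-finger protein, was at 11.7 ± 1.61, Plagl1, a zinc-finger transcription factor, at 6.55 ± 0.663, and Grb10, an adaptor that dampens signalling by insulin and IGF receptors, at 6.44 ± 1.25 CPM per kb. Plagl1 and Grb10 did not differ beyond their spread, each being the higher in 3 libraries. Dlk1, a transmembrane protein related to Notch ligands, was lowest at 0.874 ± 0.135 CPM per kb.

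The order depends on the gene length used. The deposited FPKM put Ndn first at 201, ahead of Snrpn at 91.6 and Meg3 at 74.9, and put Peg3 at 9.78 above Igf2 at 9.21 and H19 at 7.68. The lengths behind these FPKM, worked out from the counts and totals, were 1652 bases for Ndn, which is its whole locus in the deposited table but less than the 3694 bases of its GENCODE M21 exons, and 5688 bases for H19, whose whole locus spans 2615 bases. For Dlk1 the length was 16789 bases against a locus of 10514. The place of Ndn below Snrpn and Meg3 thus rests on the longer GENCODE M21 model, and with the deposited length it would be first. Fold changes between libraries do not depend on these lengths.

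**Figure D1:**
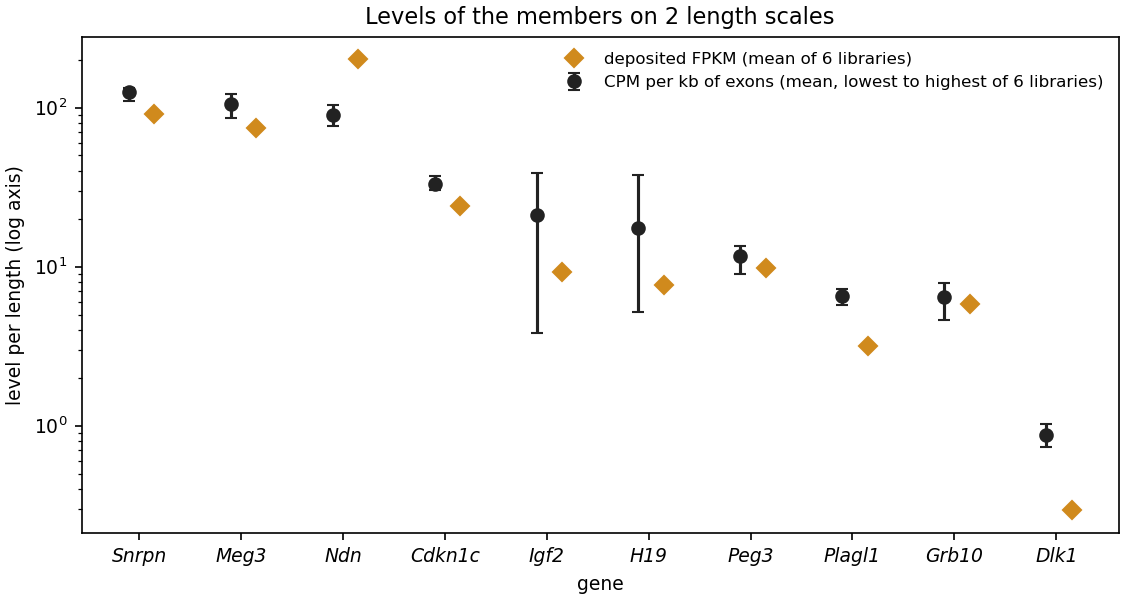
Level per length of the 10 imprinted genes on a log axis, in order of the mean. Circles with bars give CPM per kb of GENCODE M21 exons (mean, lowest to highest of 6 libraries) and diamonds the mean deposited FPKM; Ndn moves from the third place at 90.2 to the first at 201, and Igf2 and H19 have the longest bars.

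The libraries differed in ways that touch these genes. Wild-type replicate 1 held almost no meningeal RNA: 10 meningeal markers summed to 17.6 CPM there, against 536 and 186 CPM in the other wild types and 203 to 427 CPM in the mutants, and Aldh1a2 was at 0 counts. Xist had 11 to 37 counts per wild-type library and 66194 to 79080 per mutant library. Counts of Y-linked Ddx3y were 1463, 1891 and 2 across the wild types and at most 2 in any mutant. No mutant matched a wild type in Xist, so sex and genotype cannot be told apart. Wild-type replicate 3 matched neither pattern, with 37 counts of Xist and 0 to 4 counts of each of 4 Y-linked genes, and by the Y-linked genes it was like the mutants. Without that library 0 of the 10 members were called by edgeR, and their log2 fold changes ran from -0.34 (H19) to 0.11 (Grb10). Choroid plexus markers summed to 99.2 CPM in mutant replicate 3 and to 1.73 to 3.49 CPM in the other libraries. Ttr alone was at 93.3 CPM in mutant replicate 3. Folr1 and Clic6 were also highest there, but Kl and Kcne2 were not. The 7 neuronal markers, Neurod6 and Tbr1 of cortical neurons among them, summed to 6150 to 7060 CPM in the wild types and 7050 to 7300 CPM in the mutants. Striatal markers were at 90.1 to 139 CPM in the wild types and 50.5 to 55.9 CPM in the mutants. Tle4 itself was at 198, 142 and 166 CPM in the wild types and 69.3, 86.8 and 86.8 CPM in the mutants (log2 fold change -1.06, edgeR adjusted p = 0.0377), with no overlap between the genotypes. That call was lost when any single library other than wild-type replicate 2 was left out (log2 fold change -1.11 to -0.93).

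Igf2 (ENSMUSG00000048583, chromosome 7 from 142650766 to 142666816, minus strand) was at 21.8, 223 and 83.8 CPM in wild-type replicates 1, 2 and 3. In mutant replicates 1, 2 and 3 it was at 86.6, 158 and 150 CPM. Wild-type replicate 1 was the lowest and wild-type replicate 2 the highest of the 6 libraries, so the mutants fell inside the range of the wild types. The genotypes were not distinguishable (110 ± 103 against 131 ± 39.0 CPM, SD, n = 3 each, log2 fold change 0.26 with SE 0.88, edgeR adjusted p = 1). The 95% interval of the mutant to wild-type ratio ran from 0.239 to 5.98. Leaving out wild-type replicate 1 gave a log2 fold change of -0.23, and leaving out wild-type replicate 2 gave 1.32. By limma-voom it was 0.75, and with the replicate number as a block 0.76 (neither called), so its size depends on the fit and its sign on those libraries. Igf2 overlaps Igf2os on the opposite strand, with 8 to 48 counts per library, and without the strand setting reads of the pair cannot be told apart. In bulk RNA, fewer cells of a type and less RNA per cell cannot be told apart.

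H19 (ENSMUSG00000000031, chromosome 7 from 142575529 to 142578143, minus strand) was at 12.7, 92.5 and 29.7 CPM in the wild types and 26.0, 57.8 and 41.5 CPM in the mutants, replicates 1 to 3. The order of the libraries was nearly that of Igf2: wild-type replicate 1 lowest, wild-type replicate 2 highest and mutant replicate 2 next. Between genotypes the log2 fold change came to -0.11 with SE 0.80 (edgeR adjusted p = 1), with an interval of the ratio from 0.217 to 3.94. Leaving out wild-type replicate 2 gave 0.98, and leaving out wild-type replicate 1 gave -0.55. The highest library was 7.27 times the lowest for H19 and 10.3 times for Igf2. Among 11882 tested genes with a mean of at least 5 CPM the median was 1.37 times, and 99.1% and 99.4% of them had a smaller spread than H19 and Igf2. For each count of H19 there were 1.71, 2.41 and 2.82 counts of Igf2 in wild-type replicates 1 to 3, and 3.34, 2.72 and 3.61 in mutant replicates 1 to 3, so the ratio spanned less than either gene.

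Meningeal markers followed the same libraries. Col1a1, a collagen of meningeal fibroblasts, was at 1.43, 93.9 and 33.2 CPM in the wild types and 35.2, 76.9 and 50.3 CPM in the mutants, and Col3a1 at 2.24, 123 and 43.7 and at 46.6, 106 and 60.2 CPM. Wild-type replicate 1 held 9.76% of the Igf2 and 13.8% of the H19 of wild-type replicate 2. For the 10 meningeal markers this share was 0% (Aldh1a2) to 16.1% (Foxc1), with Col1a1 at 1.52%. It was 42.8% to 91.6% for 6 endothelial markers, 49.1% to 107% for 5 pericyte markers and 78.5% to 126% for 7 neuronal markers. By this measure Igf2 and H19 lay below the ranges of the endothelial, pericyte and neuronal markers. Among the meningeal markers only Foxc1 was higher, and the next, Islr, was at 6.67%. Against the lowest of the remaining libraries, wild-type replicate 1 held 26.0% of the Igf2 and 49.0% of the H19. The meningeal markers ran from 0% to 36.3% (Foxc1), with the next, Ogn, at 21.7%. Igf2 was thus below Foxc1 alone, and H19 was above all 10. Choroid plexus markers were left out of this comparison, with sums of 1.73 CPM in wild-type replicate 1 and 3.41 CPM in wild-type replicate 2. The part that the meninges or the choroid plexus have in the level of Igf2 and H19 was not tested by cell type.

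A score was made from the 10 meningeal markers, none of them imprinted, as their mean log2 CPM after centring each gene. The score was -3.37, 1.60 and 0.05 for wild-type replicates 1 to 3, and 0.19, 1.14 and 0.39 for mutant replicates 1 to 3. In a fit across all genes with genotype and this score, Igf2 changed with the score by 0.66 log2 units per unit (SE 0.07, edgeR adjusted p = 0.00393) and H19 by 0.57 (SE 0.09, edgeR adjusted p = 0.0362). These were 2 of the 10 members, against 0.885% of all genes tested (0.848% with a positive slope). Both were already known as meningeal genes when the fit was chosen. Without wild-type replicate 1 the slopes were 0.84 and 1.05 and missed the threshold (edgeR adjusted p = 0.347 and 0.144), where 0.00606% of all genes passed. The calls were thus lost without that library. For Igf2 the unadjusted edgeR p was 9.19e-06 with it and 0.00268 without, and for H19 0.000286 and 0.000103.

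Among the other 8 members no slope on the score passed the threshold, and 7 lay between -0.05 and 0.06 log2 units per unit, with Grb10 at 0.14 (SE 0.05, edgeR adjusted p = 0.407). Without wild-type replicate 1 all 8 slopes were above 0, from 0.08 (Peg3) to 0.20 (Dlk1, SE 0.22) and 0.22 (Grb10, SE 0.13), and again none passed. Those of Meg3 (0.15), Ndn (0.12), Cdkn1c (0.12), Snrpn (0.09) and Dlk1 had been below 0 with that library. With the score in the fit, the genotype difference was 0.04 (SE 0.20) for Igf2 and -0.38 (SE 0.27) for H19 on the log2 scale, neither past the threshold (edgeR).

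**Figure D2:**
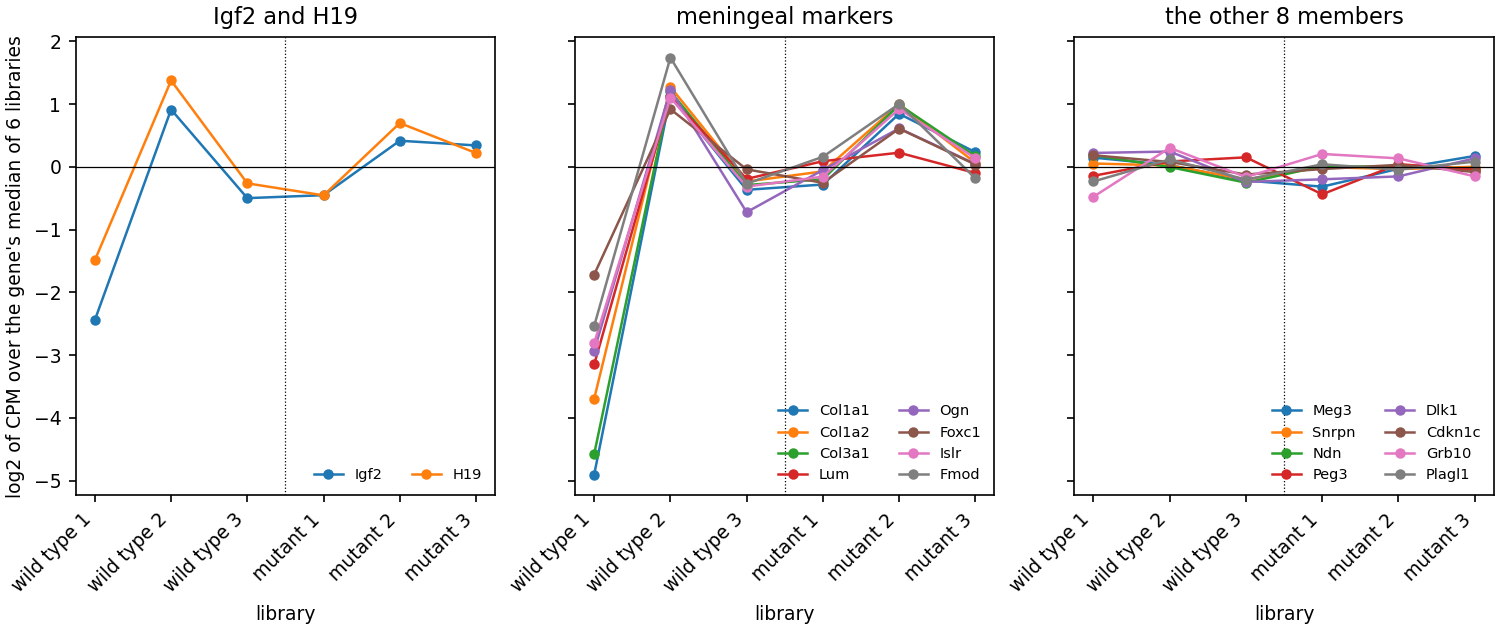
Each gene's level in the 6 libraries as log2 of CPM over its own median (y axis), with libraries on the x axis and a dotted line between genotypes. Igf2 and H19 dip in wild-type replicate 1 and peak in wild-type replicate 2, as do 8 meningeal markers, while the other 8 members stay near 0; the meningeal markers Aldh1a2 and Slc6a13 are not drawn.

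The genes whose pattern over the 6 libraries was most like that of Igf2 were sought among 11240 named genes with a mean of at least 5 CPM. Likeness was the root mean square difference of centred log2 CPM, a description of 6 libraries. Nearest to Igf2 was Adamts12, a secreted metalloprotease (difference 0.133), at 0.815, 10.5 and 3.92 CPM in the wild types and 3.18, 6.75 and 5.63 CPM in the mutants. Next were Slc6a20a, an amino acid transporter (0.238), Serpinf1, a secreted serpin (0.238), Gpc3, a cell-surface glypican (0.242), and Col4a6, a basement membrane collagen (0.276). Nearest to H19 was Ranbp3l (0.169), and then Col6a2, a collagen (0.18), Lepr, the leptin receptor (0.204), Stra6, a retinol transporter (0.215), and Slc13a3, a dicarboxylate transporter (0.225). All 10 were lowest in wild-type replicate 1 and highest in wild-type replicate 2, which follows from choosing them for likeness to Igf2 or H19.

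Of the abundant neuronal members, Snrpn varied less than most genes, while Ndn (highest library 1.35 times the lowest), Meg3 (1.41 times) and Peg3 (1.5 times) were near or above the median gene at 1.37 times. Snrpn (ENSMUSG00000102252, chromosome 7 from 59982495 to 60140219, minus strand) was at 284, 278 and 238 CPM in the wild types and 273, 267 and 274 CPM in the mutants. Its highest library was 1.19 times its lowest. The log2 fold change was 0.02 with SE 0.09 (edgeR adjusted p = 1), and the 95% interval of the ratio ran from 0.879 to 1.18. Snrpn overlaps Snurf, a reading frame on the same transcript, and Gm38393 on the same strand, with 8 to 14 and 730 to 1191 counts per library, so reads of this locus were divided between rows in a way the table does not state.

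Ndn (ENSMUSG00000033585, chromosome 7 from 62348277 to 62349928, plus strand) was at 382, 335 and 282 CPM in the wild types and 338, 336 and 327 CPM in the mutants. The mutants lay inside the wild-type range, and the interval of the ratio was 0.841 to 1.2. Meg3 (ENSMUSG00000021268, chromosome 12 from 109541001 to 109571726, plus strand) was the member with the most counts, at 2150, 1980 and 1670 CPM in the wild types and 1560, 1900 and 2190 CPM in the mutants. The highest and the lowest library were both mutants, and the log2 fold change was -0.04 (SE 0.14, ratio interval 0.785 to 1.21).

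Peg3 (ENSMUSG00000002265, chromosome 7 from 6703892 to 6730421, minus strand) was at 146, 171 and 179 CPM in the wild types and 119, 166 and 156 CPM in the mutants. Its log2 fold change of -0.17 (SE 0.14, edgeR adjusted p = 1) was the lowest of the 10 and within the spread, with a ratio interval of 0.717 to 1.10. Mutant replicate 1 was the low library, and the other 2 mutants fell within the wild-type range.

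Plagl1 (ENSMUSG00000019817, chromosome 10 from 13060504 to 13131694, plus strand), which is known to regulate other imprinted genes, was at 44.6, 56.9 and 45.5 CPM in the wild types and 53.9, 50.8 and 55.5 CPM in the mutants. Its mutants fell between the extremes of the wild types (log2 fold change 0.12, SE 0.12, ratio interval 0.897 to 1.32).

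Cdkn1c (ENSMUSG00000037664, chromosome 7 from 143458350 to 143461050, minus strand) was at 75.8, 70.4 and 61.3 CPM in the wild types and 65.1, 68.2 and 63.0 CPM in the mutants. The mutants again fell inside the wild-type range, with a log2 fold change of -0.08 (SE 0.11, ratio interval 0.794 to 1.13). Dlk1 (ENSMUSG00000040856, chromosome 12 from 109452823 to 109463336, plus strand) had 77 to 129 counts per library. It was at 5.70, 5.79 and 4.14 CPM in the wild types and 4.26, 4.4 and 5.37 CPM in the mutants, and its ratio interval of 0.624 to 1.29 is wider, at fewer counts.

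Grb10 (ENSMUSG00000020176, chromosome 11 from 11930508 to 12038683, minus strand) was at 42.1, 72.2 and 52.3 CPM in the wild types and 67.5, 64.3 and 52.7 CPM in the mutants. Wild-type replicates 1 and 2 were its lowest and highest libraries, as for Igf2 and H19, but the highest was only 1.72 times the lowest. Pericyte markers summed to 100, 171 and 114 CPM in the wild types and 124, 151 and 138 CPM in the mutants, and endothelial markers to 150, 240 and 151 CPM and to 173, 204 and 181 CPM. The pericyte and meningeal sums, like Grb10, were lowest in wild-type replicate 1 and highest in wild-type replicate 2. Not every pericyte marker was low there: wild-type replicate 1 held 107% of the Abcc9 and 103% of the Higd1b of wild-type replicate 2. Among the mutants the orders differed, since Grb10 was highest in replicate 1, where both sums were lowest. The endothelial sum was nearly the same in wild-type replicates 1 and 3. The part of these cells in the level of Grb10 was not tested. The log2 fold change between genotypes was 0.15 (SE 0.19, ratio interval 0.816 to 1.5).

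**Figure D3:**
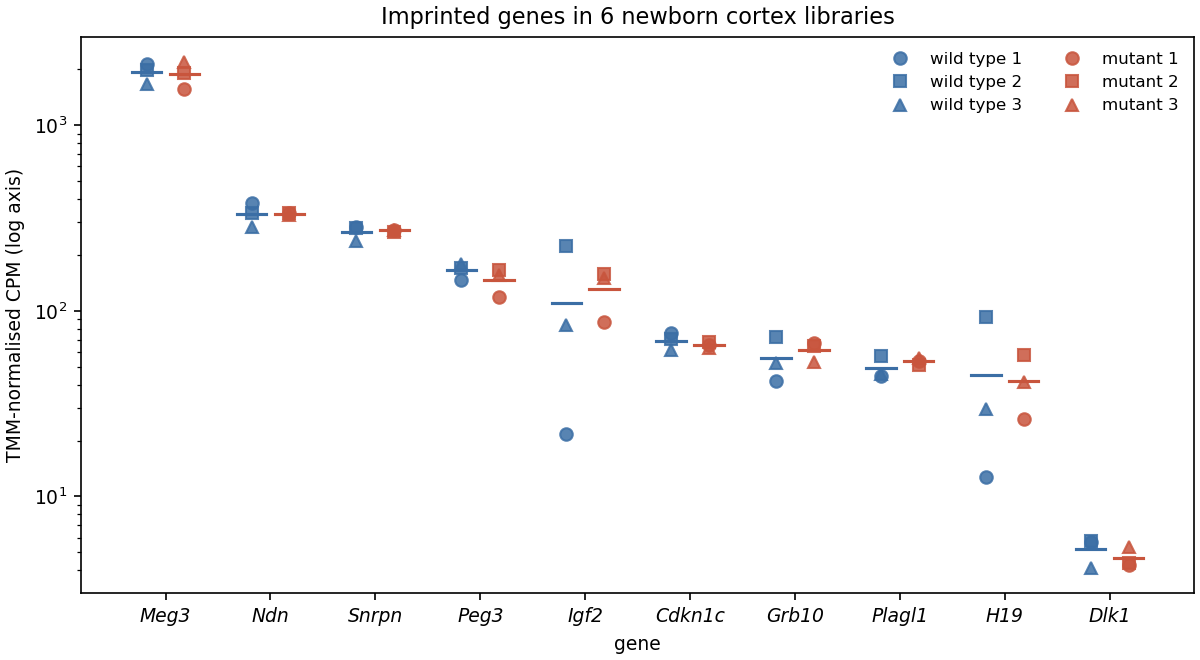
TMM-normalised CPM of the 10 genes on a log axis, with 1 marker per library (blue wild type, red mutant) and a line at each genotype's mean of 3. Igf2 and H19 spread over 21.8 to 223 and 12.7 to 92.5 CPM within the wild types alone, and no gene has genotypes that do not overlap.

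Of the 10 members, 0 differed between the genotypes by edgeR, against 0.111% of the 16274 genes tested (18 genes, 0.0492% higher and 0.0614% lower in the mutants). None had an unadjusted p under 0.05 (3.45% of all genes did), and 0 were called by DESeq2 or limma-voom. None had genotypes that did not overlap, against 7.93% of all genes (4.18% with all mutants above and 3.75% with all below). In all, 5 lay above 0 and 5 below, from -0.17 to 0.26, with a median log2 fold change of -0.02 (all genes: -0.01) and a median absolute change of 0.12 (all genes: 0.12). For the 8 members other than Igf2 and H19 the intervals exclude a change by 2-fold or more in either direction, and for Igf2 and H19 they do not.

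The neighbours of the members in the same imprinted clusters were described from a fixed list of 23 genes, of which 19 passed the filter. Zim3, Phlda2 and Dio3 had too few counts and Ins2 was not analysed here. By edgeR 0 of the 19 were called, 1 had an unadjusted p under 0.05, and 0 were called by DESeq2 or limma-voom. Over all genes 0.111% were called and 3.45% had an unadjusted p under 0.05. The median log2 fold change of the neighbours was -0.05, with 6 above 0 and 13 below, against 7922 above and 8352 below among all genes.

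In the Snrpn-Ndn cluster, Magel2, a MAGE-family relative of necdin, was at 10.6, 14.6 and 13.3 CPM in the wild types and 7.86, 9.11 and 10.5 CPM in the mutants. Every mutant was below every wild type by a narrow margin (log2 fold change -0.49, SE 0.20, edgeR adjusted p = 1), and 3.75% of all genes had every mutant below. The other paternally expressed genes there, Mkrn3 (-0.18) and Peg12 (-0.35), and the neighbour Ube3a, a ubiquitin ligase expressed from the maternal copy in neurons (0.01), had genotypes that overlapped. Snurf gave -0.02 on 8 to 14 counts per library.

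In the Dlk1-Meg3 cluster, the noncoding RNA Rian was at 552, 399 and 464 CPM in the wild types and 529, 497 and 420 CPM in the mutants (log2 fold change 0.03, SE 0.13). Rian and Meg3 lie in the same direction on the maternal chromosome, but their orders differed: Meg3 was highest in mutant replicate 3, where Rian was second lowest. Mirg gave -0.09, Begain, a postsynaptic protein, -0.05, and Rtl1, a retrotransposon-derived gene antisense to its neighbours, -0.27, all with overlapping genotypes.

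In the Cdkn1c cluster, the antisense noncoding RNA Kcnq1ot1, which silences the paternal cluster, was at 16.5, 21.1 and 17.5 CPM in the wild types and 23.5, 19.6 and 29.8 CPM in the mutants (log2 fold change 0.40, SE 0.18, edgeR adjusted p = 1). It lies within Kcnq1 on the opposite strand, and since strand use in counting is not given, reads of the pair cannot be told apart. Cd81, a tetraspanin, gave -0.05, Tssc4 -0.18, Kcnq1 0.26, Slc22a18 -0.14 and Ascl2 -0.05, the last 3 on 4 to 38 counts per library.

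Beside Peg3, the gene Usp29 gave 0.20 (SE 0.19) and Zim1 -0.05 (SE 0.26). Beside Grb10, Cobl, an actin nucleator, was at 37.5, 40.7 and 31.4 CPM in the wild types and 50.8, 39.4 and 44.0 CPM in the mutants (0.29, SE 0.14, edgeR adjusted p = 1), and Ddc gave -0.26 (SE 0.50). Cobl and Grb10 both had mutant replicate 1 among their 2 highest libraries.

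**Figure D4:**
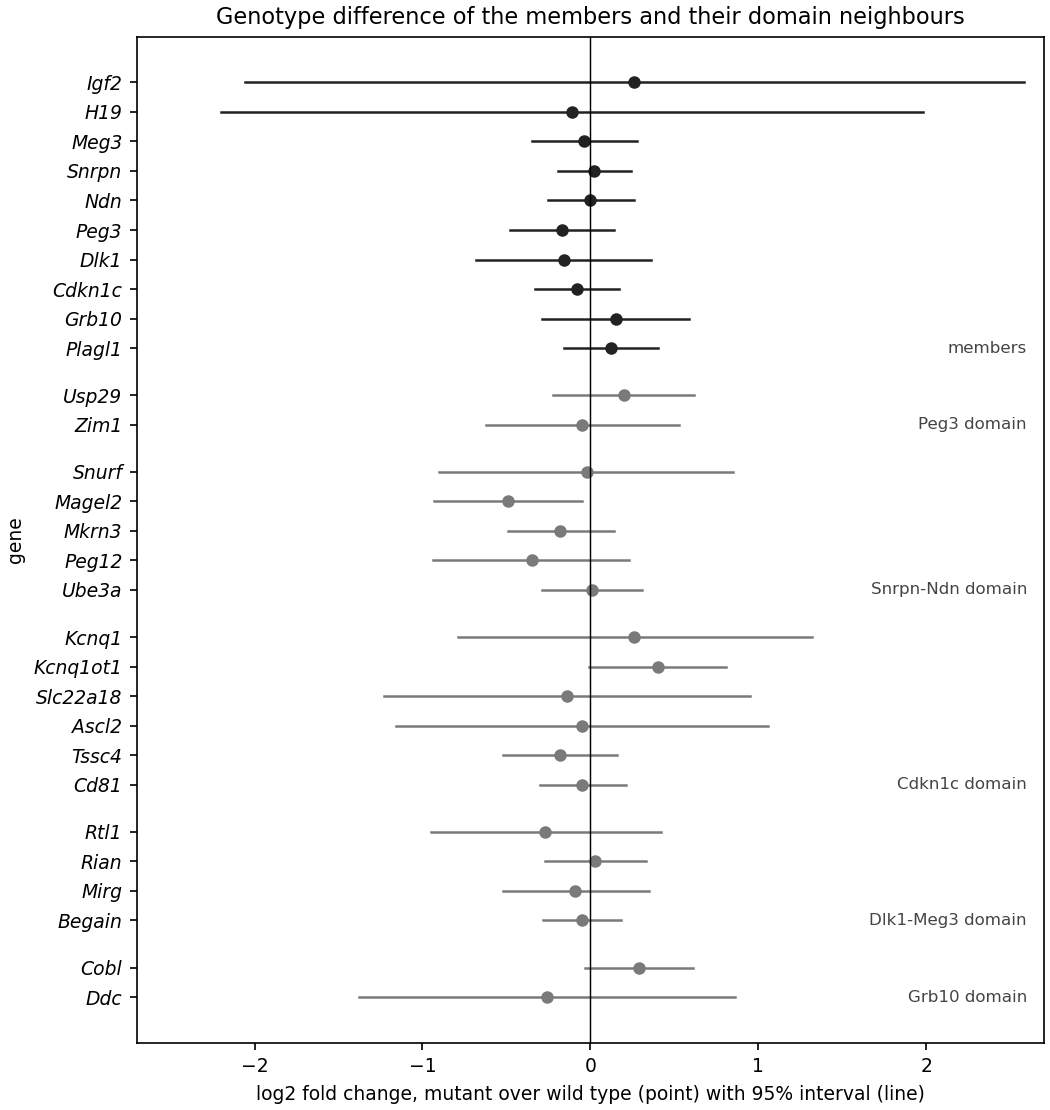
Log2 fold change of mutant over wild type (x axis, points) with its 95% interval (lines) for the 10 members (black) and 19 tested neighbours by cluster (grey). Only Magel2, at -0.49, has an interval that leaves out 0 before adjustment, and Igf2 and H19 have the longest lines.

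Imprinted genes elsewhere in the genome behaved alike in the test: 27 of 29 listed genes passed the filter and 0 were called by edgeR, DESeq2 or limma-voom. Of these, 1 had an unadjusted p under 0.05 (all genes: 3.45%), and the median log2 fold change was -0.03. The 4 with the highest deposited FPKM were Nnat, a small membrane proteolipid of developing neurons, the noncoding RNA Peg13, Gnas, the stimulatory G protein subunit, and Blcap. Gnas was at 940, 891 and 893 CPM in the wild types and 930, 992 and 926 CPM in the mutants, a spread of 1.11 times. Nnat was at 1060, 1040 and 665 CPM and at 661, 944 and 983 CPM, so 1 library of each genotype was low, and its log2 fold change was -0.09. Peg13 and Blcap gave -0.07 and 0.01.

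The 4 with the smallest p were Kcnk9, Peg10, H13 and Mest. Kcnk9, a potassium channel, was at 19.7, 15.5 and 15.9 CPM in the wild types and 7.06, 12.2 and 13.8 CPM in the mutants, with no overlap (log2 fold change -0.63, SE 0.25, edgeR adjusted p = 1), and 3.75% of all genes had every mutant below. Peg10, a retrotransposon-derived gene, gave -0.42 (SE 0.20), H13, a signal peptide peptidase, -0.26 (SE 0.13), and Mest, a hydrolase-family gene, 0.27 (SE 0.19), with genotypes that overlapped. Mest had 1 low library, wild-type replicate 3, at 35.1 CPM against 57.3 to 63.8 CPM in the rest.

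Igf2 acts through the IGF1 and insulin receptors, is bound by secreted IGF-binding proteins and is cleared by Igf2r, and Grb10 acts downstream of the receptors. Of 18 other genes of this axis, 16 passed the filter and 0 were called by edgeR, DESeq2 or limma-voom, with 0 at an unadjusted p under 0.05 (all genes: 3.45%) and a median log2 fold change of 0.09. Of the 16, 2 had genotypes that did not overlap, against 7.93% of all genes. The ligand Igf1 was at 9.62, 10.5 and 7.36 CPM in the wild types and 10.8, 12.1 and 11.9 CPM in the mutants, with no overlap between genotypes (0.34, SE 0.19, edgeR adjusted p = 1), and 4.18% of all genes had every mutant above. The receptor Igf1r gave 0.00 and the clearance receptor Igf2r, itself imprinted, -0.06.

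The RNA-binding proteins that hold Igf2 mRNA gave -0.25 for Igf2bp2, 0.30 for Igf2bp1 and 0.14 for Igf2bp3. Igf2bp2 was at 27.2, 24.7 and 29.0 CPM in the wild types and 21.4, 24.6 and 22.2 CPM in the mutants, so the genotypes were apart by a very narrow margin. Of the binding proteins, Igfbp2 was at 101, 152 and 95.1 CPM in the wild types and 122, 143 and 123 CPM in the mutants (0.15, SE 0.18), and Igfbp7 gave 0.11 (SE 0.13). Igfbp6, chosen after its values were seen, was at 0.204, 2.69 and 1.07 CPM in the wild types and 1.22, 2.56 and 2.14 CPM in the mutants, a low in wild-type replicate 1 like that of Igf2, on 4 to 60 counts per library.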

How the data were processed

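Cortical RNA of newborn mice was read in 6 libraries, 3 per genotype. Per the submitters' processing notes, the tools included HISAT2 2.0.4, StringTie and edgeR, with GRCm38.p4 and mm10 as builds; for the counting program, annotation release and strand setting the sources used here give nothing. Raw counts and FPKM per gene stand in the deposited table, per the file headers, beside the authors' p-values for the comparison. Counts entered the fit as deposited by the authors. The deposited FPKM served only to compare levels between genes, and the authors' p-values were not used. In 25 rows a gene symbol turned into a date was restored from the gene ID. The members and gene lists were chosen with earlier results of these data known.

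Counts were fitted with edgeR 4.0.16 in R 4.3.3 (filterByExpr, TMM, robust quasi-likelihood, 2-sided, genotype only), with Benjamini-Hochberg adjustment over 16274 genes and a threshold of 0.05. SEs were obtained by dividing the size of the log2 fold change by the root of F, and 95% intervals use the t quantile at the fit's degrees of freedom. They are not adjusted for the number of genes. Log2 CPM used a prior count of 2. Counts were simulated for 16071 genes from these libraries' means and depths, with 200 changed. The same steps called 181, of which 8 were false, and recovered 71.9% of 2-fold and 100% of 4-fold changes. The simulated spread followed the trend over expression level, without a spread particular to each gene. Only genes above a minimum mean count were changed. Recovery for genes as variable as Igf2 and H19 was therefore not measured. Alternatives were DESeq2 1.42.0 size factors and Wald test, limma-voom (limma 3.58.1), other filters, leaving out single libraries, blocking on replicate number, dropping mitochondrial, X and Y genes, and a meninges score as a covariate. The slopes on that score, the fit without 2 wild-type libraries and the lengths behind the FPKM were chosen after seeing the data.

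Genes were named by a rule: all members, Tle4, every tested neighbour in a member's cluster, of imprinted genes elsewhere the 4 with the highest FPKM and the 4 with the smallest p, of the IGF axis the 4 with the smallest p and the 2 with the highest FPKM, and the 5 genes most like Igf2 and H19. Igf1r, Igf2r and markers were named after their values were seen.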

Additional observations from a re-analysis of the deposited data

How the results depend on the processing

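In every alternative run, 0 members, 0 other imprinted genes and 0 IGF-axis genes were called. The number of all genes called was 64 by the DESeq2 Wald test, 9 with the replicate block, 10 without mitochondrial, X and Y genes, and 8 to 19 with each library left out, against 18 in the fit reported. The members' median log2 fold change was -0.11 to 0.05 with each library left out and -0.16 without both wild-type replicates 1 and 3, a fit that leaves 1 wild-type library, assumed to vary like the mutants. In that last fit H19 was at -1.15 (SE 0.41), Igf2 at -0.76, Dlk1 at -0.31, Snrpn at -0.03, Ndn at 0, Grb10 at -0.23 and Plagl1 at -0.09. By limma-voom and with the replicate block, Igf2 was at 0.75 and 0.76 and H19 at 0.23 and 0.26, and Meg3 at 0 with the meninges score. With each library left out, Igf2 ran from -0.23 to 1.32, H19 from -0.55 to 0.98 and Meg3 from -0.16 to 0.09. Snrpn ran from -0.05 to 0.07, Ndn from -0.10 to 0.11 and Grb10 from -0.02 to 0.38. The 0.38 of Grb10, without wild-type replicate 2, had an unadjusted edgeR p of 0.0452 (edgeR adjusted p = 0.952). Peg3, Dlk1 and Cdkn1c kept their sign in all 15 alternatives. Tle4 lost its call with the replicate block (-1.05, edgeR adjusted p = 0.207), without mitochondrial, X and Y genes (-1.06, adjusted p = 0.0532), without both wild-type replicates 1 and 3 (-0.81) and in 5 of the 6 fits with a library left out (-1.11 to -0.93), while it kept its call without wild-type replicate 2 (-1.17, edgeR adjusted p = 0.0306). The cause of these changes was not tested.

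Deviations of same-numbered libraries from their genotype means correlated at -0.06, 0.10 and -0.02 over genes, and those of differently numbered libraries at -0.09 to 0.10. These values do not settle whether the replicate numbers pair the libraries. All replicate pairs of a genotype differed by more than counting noise. Counts were few for Dlk1, Snurf, Ascl2, Slc22a18 and Kcnq1, and the spread between libraries was wide for Igf2 and H19. How far depth or spread set the precision of each gene was not tested.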

Other observations

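Rasgrf1, a paternally expressed exchange factor of neurons, had the widest spread of the imprinted genes with more than 5 CPM on average that were not members. It was at 18.6, 14.4 and 4.73 CPM in wild-type replicates 1 to 3 and at 3.23, 13.9 and 16.0 CPM in mutant replicates 1 to 3, so 1 library of each genotype was several times lower than the others. The same libraries, wild-type replicate 3 and mutant replicate 1, were the lowest for Meg3, Dlk1, Nnat, Blcap, Nap1l5 and Sfmbt2, but by smaller margins. Their highest library was 1.25 (Blcap) to 2.74 (Sfmbt2) times the lowest, against 5.77 times for Rasgrf1. In all, 7 of 56 tested imprinted genes (12.5%) had wild-type replicate 3 and mutant replicate 1 as their 2 lowest libraries, against 8.64% of 16274 genes. The pattern was seen in the data before it was counted.

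The deposited FPKM carry gene lengths that often differ from the annotation. Among 11032 genes with at least 100 counts in every library, the length behind the FPKM was above the union of GENCODE M21 exons for 71.0% and above the whole locus for 5.86%. Kcnk9 is a case in the other direction, with 1209 bases behind its FPKM against 12300 bases of exons.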
